A study of Mus musculus with 24 samples.

Results

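The 2 ATPases of the imitation switch (ISWI) family of chromatin remodelers and 8 proteins that can partner them were followed at the mRNA level in mouse embryonic stem cells (mESCs). The 10 genes were listed by symbol, with no threshold on their values: Smarca5 and Smarca1 (the ATPases SNF2H and SNF2L), Baz1a (ACF1), Baz2b, Cecr2, Rbbp4, Rbbp7, Hmgxb4, Pole3 and Chrac1. All 10 are among the 24594 genes of the count table, and all 10 were in turn among the 15682 genes with enough counts to be tested. The question was whether cells that lose one ISWI subunit change the mRNA of the others, and in particular whether any of them rises.

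Each of 6 lines had been made with CRISPR–Cas9 in mESCs of 129S6/SvEvTac background, grown in serum with leukemia inhibitory factor, to remove 1 accessory subunit: Rsf1 (Rsf1Δ), Baz1b (WstfΔ), Baz2a (Tip5Δ), Bptf (BptfΔ), Cecr2 (Cecr2Δ) and Baz1a (Acf1Δ, in which the gene was targeted more than once because of a further isoform). The 24 libraries form 5 batches, named by a letter in the labels. Batch A has 2 WT, 2 Rsf1Δ and 2 WstfΔ libraries. Batch B has 2 WT and 2 Tip5Δ libraries, batch C 2 WT and 2 BptfΔ, batch D 3 WT and 3 labelled Cecr2Δ, and batch E 2 WT and 2 Acf1Δ. No group received a treatment. Each line is 1 clone, so a difference between a line and WT cannot be told apart from a difference between clones. Cecr2 mRNA was not lower in the libraries labelled Cecr2Δ, which are therefore called by their label throughout. The paper reports that the deleted subunit could not be detected on western blots in any of the lines. Its methods state that clones were also checked by sequencing of DNA. Neither the blots nor the sequences were analysed here. Rsf1Δ and WstfΔ share their 2 WT libraries, so their changes are not independent of each other.

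ISWI remodelers are motors that use ATP to slide nucleosomes and to space them evenly. In mammals 1 of the pair of ATPases joins an accessory subunit that names the complex: BPTF in NURF, RSF1 in RSF, ACF1 in ACF and CHRAC, WSTF in WICH, TIP5 in NoRC and CECR2 in CERF. The WD40 proteins RBBP4 and RBBP7 bind histones in NURF and also in other complexes such as PRC2, NuRD and CAF-1, and the histone-fold proteins POLE3 and CHRAC1 pair with each other in CHRAC.

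The ATPases are paralogues on different chromosomes, and the 250 bases before their start sites (RefSeq, GRCm38.p6, both genes on the minus strand) are shown since they differ in content, with the dinucleotide CG in capitals. The Smarca5 window is chr8:80739460-80739709 and the Smarca1 window chrX:47892614-47892863, each read 5′ to 3′ towards the gene.
Smarca5: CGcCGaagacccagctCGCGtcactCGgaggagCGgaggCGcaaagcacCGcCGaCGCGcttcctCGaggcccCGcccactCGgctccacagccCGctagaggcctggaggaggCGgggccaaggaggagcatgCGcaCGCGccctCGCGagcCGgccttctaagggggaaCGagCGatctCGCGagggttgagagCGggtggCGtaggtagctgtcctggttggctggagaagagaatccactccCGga
Smarca1: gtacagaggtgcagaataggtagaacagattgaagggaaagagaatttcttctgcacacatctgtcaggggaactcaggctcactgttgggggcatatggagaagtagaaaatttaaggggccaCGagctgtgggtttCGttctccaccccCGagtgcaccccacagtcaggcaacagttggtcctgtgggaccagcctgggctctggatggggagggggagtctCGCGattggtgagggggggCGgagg
The window of Smarca5 holds 29 CG dinucleotides, more than 93.2% of the 32851 windows of this length in the table, and that of Smarca1 holds 6, which is the median of all windows. The bases that follow the start site in the table were found in a GENCODE transcript of the gene for Smarca5 and not for Smarca1. Of the 10 genes, 7 have an entry in the promoter table.

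Total counts were between 13.4 and 36.7 M (mega) per library, with a median of 25.0 M. Levels are normalized CPM (counts scaled to the same total of 1 M in each library), and levels of different genes are compared as CPM per kilobase of the gene width given with the counts. The 6 mESC markers Pou5f1, Sox2, Nanog, Klf4, Esrrb and Zfp42 were each above 10 CPM in all 24 libraries, the lowest value being 114 CPM. In the 4 libraries of batch C, the non-polyadenylated RNA Rpph1 (picked with its values known) was at 3290 to 4820 CPM, against 0.0876 to 3.39 CPM in the 20 other libraries. In such bulk RNA, fewer cells of one kind and less RNA per cell cannot be told apart.

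In WT cells the histone-binding subunits were the most abundant members and Baz2b the least. Rbbp7 (gene ID 245688, chrX:162760372-162779090) was at 142 ± 11.6 CPM per kilobase (SD, n = 11 libraries) and Rbbp4 (19646, chr4:129307100-129335370) at 68.3 ± 8.78. Smarca5 (93762, chr8:80699943-80739459) followed at 43.6 ± 6.21. These 3 genes and the rest kept this order in each of the 11 libraries without overlap of their ranges. Pole3 (59001, chr4:62523798-62525014) at 23.8 ± 1.80 and Hmgxb4 (70823, chr8:74993650-75031978) at 23.5 ± 2.97 CPM per kilobase were next, and their levels overlapped, with Pole3 the higher in 6 of 11 libraries. Baz1a (217578, chr12:54892989-55014371) was at 9.97 ± 0.86, Chrac1 (93696, chr15:73090412-73094075) at 9.79 ± 1.26 and Cecr2 (330409, chr6:120666314-120771191) at 9.48 ± 1.02. These 3 levels were not separated from one another, since Baz1a was above Chrac1 in 6 of 11 libraries and Chrac1 above Cecr2 in 5 of 11. Smarca1 (93761, chrX:47809370-47892613) had a lower mean than these 3 at 6.32 ± 1.30, and was lower than Cecr2 in 11 of 11 libraries though their ranges overlapped. In both WT libraries of batch C it was above Chrac1, at 8.78 and 8.27 against 7.63 and 8.23. Baz2b (407823, chr2:59899363-60209913) was lowest at 2.20 ± 0.52 CPM per kilobase. This order rests on the gene width. In CPM without that division, Rbbp4 (mean 597) was above Rbbp7 (413), and Baz2b (36.7) was above Chrac1 (23.0).

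**Figure D1:**
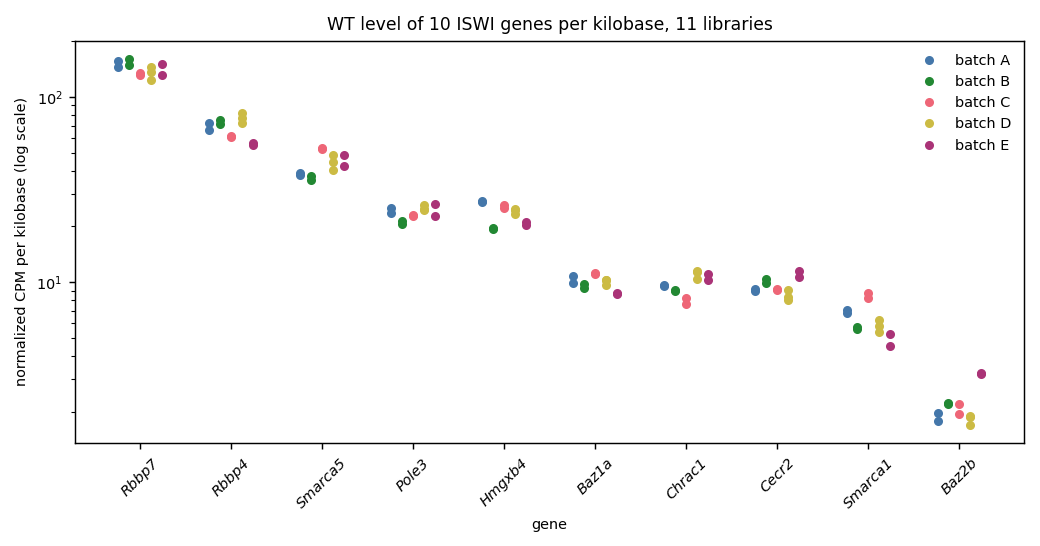
Level of each of the 10 genes in the 11 WT libraries, as normalized CPM per kilobase on a log axis, with 1 point per library coloured by batch. Rbbp7, Rbbp4 and Smarca5 stand above the other genes, and Baz2b is lowest, with its batch E libraries above the rest.

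Levels of WT cells also differed between batches. For 9 of the 10 members the 5 batches were not equal (edgeR quasi-likelihood F test with Benjamini–Hochberg adjustment over all genes tested, adjusted p under 0.01), as for 73.1% of all genes tested. Baz2b had the widest spread, with a WT mean 1.75-fold higher in batch E than in batch D, followed by Smarca1 with 1.74-fold between batches C and E. Rbbp7 had the narrowest at 1.16-fold (adjusted p = 0.0148). Each line is therefore compared with the WT libraries of its own batch.

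Among the 58 comparisons of a line with its WT for a member that the line does not target, 8 were called higher, 15 lower and 35 neither, at an adjusted p under 0.01. Over the 6 lines together 12.1% of all genes were called higher and 13.9% lower, and by line the shares were 2.84% to 21.4% and 6.23% to 20.2%. The largest increase was that of Baz2b in WstfΔ, with a log2 fold change of 0.77 (1.70-fold). Changes past 2-fold (an absolute log2 fold change over 1 as well) were 3, all of them decreases in BptfΔ, where 6.75% of all genes passed 2-fold over the 6 lines together. For each of the 35 comparisons not called, the 95% interval of the log2 fold change lay within 0.5 of zero, with outer bounds of −0.44 and 0.47. In 12 of the 23 called comparisons the mean of the line also lay outside the range of all 11 WT libraries, which was so for 51.7% of the calls over all genes.

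BptfΔ, the line without the largest NURF subunit, had the most calls among the members. In it 1 of the 10 members was higher and 6 lower, where 21.4% and 20.2% of all genes tested were higher and lower. Of the members, 3 (Baz1a, Cecr2 and Smarca1) passed 2-fold, against 13.8% of all genes. The median log2 fold change of the 10 members was −0.33, beside a median of 0.015 over all genes tested. WstfΔ had 2 members higher and 4 lower, where 16.4% of all genes were higher and 18.3% lower, and 0 past 2-fold (10.4% of all genes). Over protein-coding genes only, a setting added with the data known because batch C holds RNAs without a poly(A) tail, the count in BptfΔ was also 7. The member median of WstfΔ was −0.095, beside −0.026 over all genes. In Acf1Δ 2 members were higher and 3 lower, the targeted Baz1a included (15.1% and 16.7% of all genes), and Baz1a alone passed 2-fold (4.45% of all genes).

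The remaining lines changed fewer members. In Rsf1Δ 2 members were higher and 2 lower, where 7.45% and 13.1% of all genes tested were, with 0 past 2-fold (5.91%). The libraries labelled Cecr2Δ had 2 higher, the targeted Cecr2 among them, and 1 lower (9.52% and 8.83%), with 0 past 2-fold (3.11%). In Tip5Δ 0 members were called in either direction by edgeR's quasi-likelihood test, where 2.84% of all genes were higher, 6.23% lower and 2.72% past 2-fold. At an unadjusted p under 0.05, for which the share of all genes was not counted, the count in Tip5Δ was 3, and DESeq2 called 0. In a fit of Tip5Δ and its WT libraries alone, 4 were called, with Smarca1 lower and Smarca5, Rbbp4 and Hmgxb4 higher, by log2 fold changes of −0.26, 0.13, 0.16 and 0.14. The share of all genes called in that fit was not counted, and the shares above are not from it. The member medians of Rsf1Δ, Tip5Δ, the libraries labelled Cecr2Δ and Acf1Δ were 0.016, 0.086, −0.034 and 0.022. The 6 changes of a gene were tested for equality in the same fit, and they differed for 9 of the 10 members (65.3% of all genes), Pole3 being the exception (adjusted p = 0.168).

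**Figure D2:**
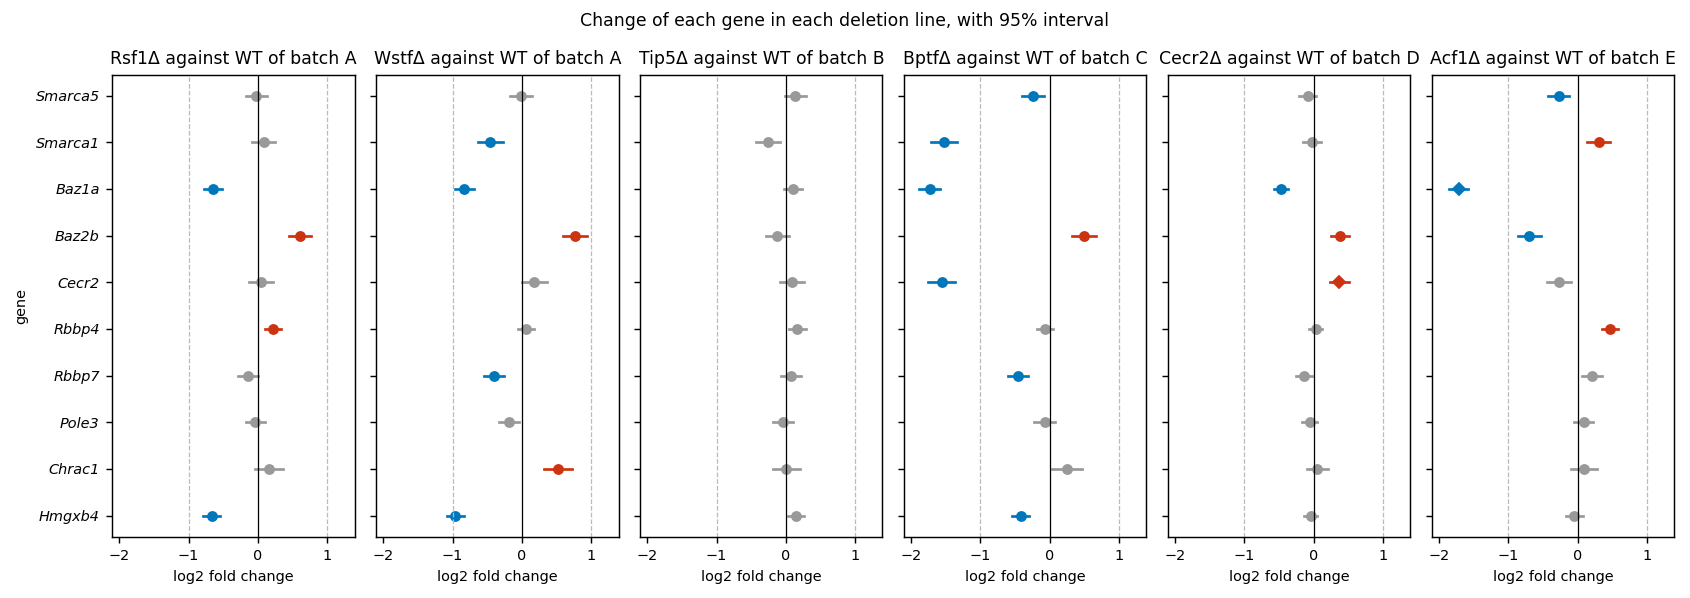
Log2 fold change of each of the 10 genes in each line against the WT libraries of its batch, with 95% intervals as bars. Red marks genes called higher, blue genes called lower and grey genes not called at an adjusted p under 0.01, diamonds mark the gene a line targets, and dashed lines mark 2-fold. The 3 points of BptfΔ beyond the left dashed line are Smarca1, Baz1a and Cecr2, and no point lies beyond the right one.

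Smarca5 encodes SNF2H, the ATPase found in most mammalian ISWI complexes. It was called in 2 of the 6 lines, lower in both. In batch A the WT libraries were at 304 and 296 normalized CPM, Rsf1Δ at 312 and 279.6, and WstfΔ at 312 and 284, so the 3 groups overlapped. In batch B the WT libraries were at 290.3 and 276 CPM and the Tip5Δ libraries both at 312, and in batch D the WT libraries were at 376, 312 and 346 CPM beside 309.7, 329 and 336 in those labelled Cecr2Δ. None of these 4 lines was called, and their log2 fold changes lay between −0.09 and 0.14. BptfΔ libraries were at 357 and 339 CPM and their WT at 409 and 413. Acf1Δ libraries were both at 294 CPM and their WT at 377 and 332. In both lines the libraries lay below every WT library of the batch, with log2 fold changes of −0.24 ± 0.074 (SE, adjusted p = 0.0086) in BptfΔ and −0.27 ± 0.074 (adjusted p = 0.0044) in Acf1Δ by edgeR's quasi-likelihood test. Both calls are marginal. The call in BptfΔ was lost when any 1 of the 4 libraries was left out, with log2 fold changes of −0.25 and −0.23 without either WT library and −0.28 and −0.20 without either BptfΔ library (adjusted p 0.0189 to 0.0891), and without the batch term the value was 0.037 (0.823). That in Acf1Δ was lost without WT replicate 1 (−0.17, adjusted p = 0.118), Acf1Δ replicate 1 (−0.27, 0.0163) or Acf1Δ replicate 2 (−0.27, 0.0225), in a fit of Acf1Δ with its own WT alone (−0.25, 0.104), without the batch term (−0.21, 0.336) and without batch C (−0.25, 0.0137), the last a setting added after the data were seen. Of the 5 tested genes on each side of Smarca5, 5 of 10 were called lower in Acf1Δ, where 16.7% of all genes were, with a median log2 fold change of −0.22. The difference between Smarca5 and these neighbours was not tested. The 6 changes of Smarca5 were unequal, though only just under the threshold (adjusted p = 0.0098).

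Smarca1, which lies on the X chromosome and encodes SNF2L, the paralogue that can take the place of SNF2H in several complexes, varied more. It was lower in BptfΔ at 17.4 and 18.8 CPM, against 53.7 and 50.6 in the WT libraries of batch C. No BptfΔ library came near a WT library of any batch, and the log2 fold change was −1.53 ± 0.091 (SE, 2.88-fold lower, edgeR adjusted p = 1.06e-13). In batch A the WT libraries held 41.5 and 43.4 CPM and the WstfΔ libraries 30.5 and 31.5, whereas Rsf1Δ had 47.4 and 42.8 CPM and overlapped WT. The decrease in WstfΔ was −0.45 ± 0.087 (adjusted p = 1.0e-04), and without the batch term it was −0.32 and not called (0.215). Tip5Δ libraries at 29.9 and 28.0 CPM also lay below their WT at 34.99 and 34.2, but the difference of −0.26 ± 0.083 was not called (adjusted p = 0.0346). Libraries labelled Cecr2Δ held 34.9, 34.7 and 35.6 CPM, within the range of their WT at 38.5, 33.0 and 35.3.

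Smarca1 rose in 1 line. Acf1Δ libraries held 38.5 and 35.4 CPM and their WT 32.2 and 27.7, without overlap, for a log2 fold change of 0.30 ± 0.082 (1.23-fold higher, adjusted p = 0.0038). The call was lost without WT replicate 2 (0.19, adjusted p = 0.102) or without Acf1Δ replicate 1 (0.24, 0.0452), and in a fit of Acf1Δ with its own WT alone (0.32, 0.0576). WT libraries of batch E were the lowest in Smarca1, the level in Acf1Δ stayed within the range of all WT libraries, and without the batch term the change was −0.063 (adjusted p = 0.856). The 6 changes of Smarca1 were unequal (adjusted p = 5.80e-12). WstfΔ minus Rsf1Δ, a comparison within batch A that was added after the data were seen, gave −0.54 ± 0.086 for Smarca1 (adjusted p = 1.17e-05) and 0.0089 for Smarca5, where 33.3% of all genes differed between these lines.

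The balance of the ATPases was taken in each library as the log2 ratio of Smarca1 to Smarca5 per kilobase, a value that does not depend on the scaling of libraries. In WT cells Smarca1 made up between 9.61% and 15.7% of the summed ATPase mRNA. BptfΔ stood apart with ratios of −4.01 and −3.83, against −2.68 and −2.58 in its WT, and a Smarca1 share of 6.21% ± 0.53 (SD, n = 2) in place of 13.9% ± 0.58. Acf1Δ moved in the opposite direction, from −3.23 and −3.20 in WT to −2.71 and −2.59, and the share from 9.70% ± 0.13 to 13.8% ± 0.71. The share in Acf1Δ was thus within the range of WT libraries of other batches, while that in BptfΔ was below all 11. WstfΔ and Tip5Δ had lower ratios than their WT by 0.44 and 0.40, Rsf1Δ had a higher one by 0.11, and none of these overlapped WT. The difference in Rsf1Δ was 0.057 without WT replicate 1 and 0.16 without WT replicate 2. Libraries labelled Cecr2Δ overlapped their WT. With 2 or 3 libraries a group no exact test of these ratios was made, because 2 against 2 cannot reach a p under 0.05.

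**Figure D3:**
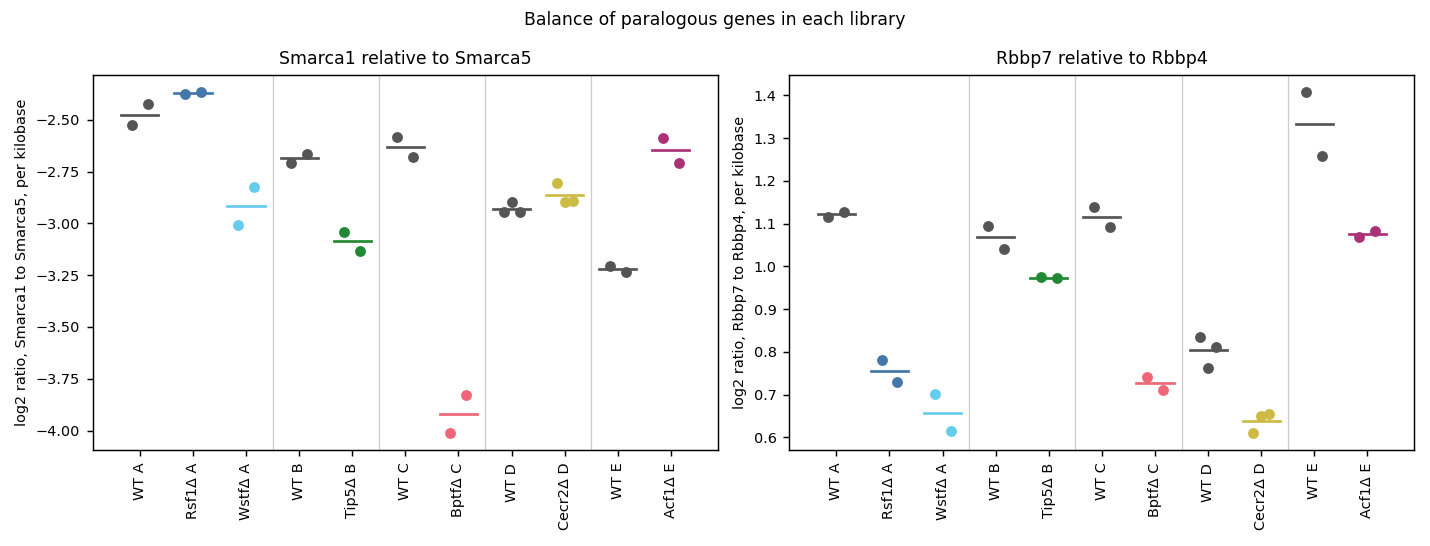
Log2 ratio per kilobase of Smarca1 to Smarca5 (left) and of Rbbp7 to Rbbp4 (right) in each library, with 1 point per library and a bar at the group mean. The BptfΔ points at −4.01 and −3.83 are the lowest of the left panel, and in the right panel every line lies below the WT libraries of its batch.

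Baz1a encodes ACF1, the large subunit that pairs with SNF2H in ACF and CHRAC. It was called lower in 5 of the 6 lines. In these lines 8.83% to 20.2% of all genes were lower, and the share lower in as many lines was not counted. In its own line, Acf1Δ, it was at 19.0 and 18.9 CPM against 61.8 and 62.9 in WT, a log2 fold change of −1.72 ± 0.068 (SE, 3.29-fold lower, edgeR adjusted p = 2.73e-16). BptfΔ, in which Baz1a was not targeted, had nearly as little, at 23.5 and 24.4 CPM against 80.5 and 79.2 in WT. The log2 fold change there was −1.74 ± 0.071 (3.33-fold lower, adjusted p = 3.99e-17), with a 95% interval of −1.88 to −1.59 beside −1.86 to −1.58 in Acf1Δ. In batch A the WT libraries were at 70.5 and 76.9 CPM, Rsf1Δ at 45.2 and 49.3 and WstfΔ at 41.7 and 41.3, decreases of −0.64 ± 0.064 (adjusted p = 8.76e-09) and −0.83 ± 0.067 (1.04e-10). Libraries labelled Cecr2Δ held 50.5, 52.9 and 53.1 CPM and their WT 73.4, 73.7 and 69.3, a change of −0.47 ± 0.051 (5.08e-08). In each of these lines the mean was below all 11 WT libraries. Tip5Δ, at 73.1 and 73.4 CPM against 70.2 and 66.3 in WT, was the exception with a log2 fold change of 0.10 that was not called. Without the targeted line the other 5 changes were still unequal (adjusted p = 1.38e-13).

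Baz2b encodes a bromodomain protein related to TIP5 that can also bind the ATPases. It rose in 4 lines and fell in 1, and the share of all genes that did so in as many lines was not counted. WT libraries of batch A held 29.6 and 32.9 CPM, Rsf1Δ 46.4 and 49.0, and WstfΔ 54.8 and 51.5, with log2 fold changes of 0.61 ± 0.080 (1.53-fold, adjusted p = 8.99e-07) and 0.77 ± 0.082 (1.70-fold, 1.84e-08). BptfΔ libraries were at 48.9 and 48.4 CPM against 32.5 and 36.6 in WT, or 0.49 ± 0.083 (1.41-fold, 1.46e-05). Libraries labelled Cecr2Δ were at 40.2, 39.9 and 39.3 CPM against 31.7, 31.3 and 28.3, or 0.39 ± 0.064 (1.31-fold, 3.81e-05). In these 4 lines each library was above every WT library of its batch. In Acf1Δ, Baz2b was at 35.8 and 30.2 CPM and its WT at 53.0 and 53.7, a decrease of −0.70 ± 0.078 (1.62-fold lower, 9.55e-08). Tip5Δ at 34.2 and 33.5 CPM was close to its WT at 36.98 and 36.7 and was not called. WT libraries of batch E were themselves the highest in Baz2b, so none of the 5 called means lay outside the range of all WT libraries. In a fit without the batch term all 5 calls were lost, and the change in Acf1Δ was −0.15. Of the 5 tested genes on each side of Baz2b on chromosome 2, 5 of 10 were called lower in Acf1Δ, where 16.7% of all genes were, and all 10 had log2 fold changes below zero with a median of −0.38. In BptfΔ 3 of 10 were higher, beside 21.4% of all genes, with a median of 0.42. In WstfΔ 4 were higher, beside 16.4% of all genes, and 1 lower, with a median of 0.24. In Rsf1Δ the neighbours had a median of −0.13 and in the libraries labelled Cecr2Δ one of 0.069. Whether these neighbours and Baz2b share a cause was not tested.

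Cecr2 encodes the subunit that defines CERF. In the libraries labelled Cecr2Δ it was at 142, 149 and 147 CPM, against 107, 121 and 110.3 in WT, so every one of them was above every WT library of the batch. The log2 fold change was 0.37 ± 0.069 (SE, 1.29-fold higher, edgeR adjusted p = 1.5e-04). WT libraries of batch D had the lowest mean of Cecr2 among the WT batches, and without the batch term the change was 0.21 and not called (adjusted p = 0.125). A count over the whole gene does not show whether its reading frame was disrupted. In BptfΔ, Cecr2 was at 42.9 and 39.4 CPM against 120.3 and 122 in WT, a decrease of −1.56 ± 0.094 (2.95-fold lower, adjusted p = 1.49e-13) to below all 11 WT libraries. In the other lines Cecr2 was not called, although a fit of WstfΔ with its own WT alone called it higher (0.20, adjusted p = 0.0016). Rsf1Δ held 121 and 129.7 CPM and WstfΔ 138 and 137, beside 119 and 123 in WT of batch A, and Tip5Δ held 146 and 142 beside 138 and 131. Acf1Δ libraries differed from each other, at 139.8 and 105 CPM against 142 and 152 in WT, and the difference of −0.27 ± 0.085 was not called (adjusted p = 0.0122). Without Acf1Δ replicate 1 it was −0.49 and called (7.72e-06), and without Acf1Δ replicate 2 it was −0.071 (0.486), so its size rests on 1 library. It was also called with no filter on low counts (−0.25, 0.0025) and with a stricter one (−0.29, 0.0089).

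The genes beside the 3 members past 2-fold in BptfΔ were described in the same way. The medians of their log2 fold changes over 10 neighbours were −0.28 for Baz1a (3 of 10 called lower), −0.17 for Cecr2 (3 lower and 2 higher) and −0.13 for Smarca1 (2 lower and 3 higher), where 20.2% of all genes were lower and 21.4% higher. The difference between a member and its neighbours was not tested.

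Hmgxb4 encodes a high-mobility-group protein found with NURF. It fell in 3 lines. In batch A the WT libraries were at 143 and 142 CPM, Rsf1Δ at 89.8 and 90.1, and WstfΔ at 75.8 and 70.9. Neither line overlapped WT, and the log2 fold changes were −0.67 ± 0.059 (SE, 1.59-fold lower, edgeR adjusted p = 1.04e-09) and −0.96 ± 0.061 (1.95-fold lower, 8.44e-13). BptfΔ libraries were both at 100 CPM against 131 and 136 in WT, a change of −0.41 ± 0.060 (1.75e-06). In each of the 3 lines the mean was below all 11 WT libraries. Without the batch term the calls in Rsf1Δ (−0.45, adjusted p = 0.0304) and BptfΔ (−0.30, 0.0418) were lost. Levels in Tip5Δ (115 and 110.5 CPM against 102 and 101), in the libraries labelled Cecr2Δ (119, 125 and 125 against 128, 129 and 122) and in Acf1Δ (111 and 99.8 against 110.4 and 107) were not called different from WT. WstfΔ minus Rsf1Δ was −0.29 ± 0.062 for Hmgxb4 (adjusted p = 3.5e-04).

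Rbbp4 and Rbbp7 encode close paralogues that present histones to NURF and to other complexes. Rbbp4 rose in 2 lines and Rbbp7 fell in 2 others. Rbbp4 was at 645 and 706 CPM in Acf1Δ against 493 and 482 in WT, a log2 fold change of 0.47 ± 0.057 (SE, 1.39-fold higher, edgeR adjusted p = 3.5e-07). WT libraries of batch E were the lowest in Rbbp4, the mean in Acf1Δ lay within the range of all WT libraries, and in a fit without the batch term the change was 0.18 and not called (adjusted p = 0.351). In Rsf1Δ it was at 707 and 709 CPM against 633 and 582, or 0.22 ± 0.057 (1.17-fold, adjusted p = 0.0041), a call that was lost without WT replicate 2 (0.16, 0.108), without either Rsf1Δ library (0.22, 0.0249 and 0.0289) and without the batch term (0.25, 0.246). WstfΔ libraries at 629 and 642 CPM overlapped this WT pair. Rbbp4 was not called in Tip5Δ (716 and 729 CPM against 656 and 628, adjusted p = 0.0424), in BptfΔ (511 and 508 against 531 and 538) or in the libraries labelled Cecr2Δ (689, 684 and 698 against 714, 635 and 676).

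Rbbp7 was at 340.1 and 327 CPM in WstfΔ against 456 and 423 in WT, a change of −0.40 ± 0.071 (1.32-fold lower, adjusted p = 4.47e-05). In BptfΔ it was at 284 and 277 CPM against 389.5 and 382, or −0.46 ± 0.071 (1.38-fold lower, 5.12e-06). Both means lay below all 11 WT libraries. Without the batch term the change in WstfΔ was −0.31 and not called (adjusted p = 0.0145). Rsf1Δ (404 and 391 CPM), Tip5Δ (468 and 476 against 466 and 430.2) and the libraries labelled Cecr2Δ (350.1, 357 and 365 against 424, 358 and 394) were not called. Acf1Δ libraries at 449.9 and 498 CPM lay above their WT at 436 and 384, with a difference of 0.21 ± 0.070 that was not called (adjusted p = 0.0178). It was called without WT replicate 1 (0.30, 0.0053) or Acf1Δ replicate 1 (0.28, 0.0051), and it was smaller without WT replicate 2 (0.115, 0.267) or Acf1Δ replicate 2 (0.14, 0.197). It was also called with no filter on low counts (0.23, 0.0017) and over protein-coding genes only (0.23, 0.0093), the second a setting added after the data were seen.

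The ratio of Rbbp7 to Rbbp4 was lower than in WT in all 6 lines, and no line overlapped the WT libraries of its batch. The log2 ratio per kilobase was 0.73 and 0.78 in Rsf1Δ and 0.61 and 0.70 in WstfΔ, against 1.12 and 1.13 in WT. It was 0.71 and 0.74 in BptfΔ against 1.09 and 1.14, and 1.07 and 1.08 in Acf1Δ against 1.26 and 1.41. The smallest shifts were in the libraries labelled Cecr2Δ, by −0.16, and in Tip5Δ, by −0.094. Rsf1Δ and WstfΔ are here compared with the same WT libraries. Over the WT libraries of all batches the log2 ratio was between 0.763, in batch D, and 1.41, in batch E. Tip5Δ libraries (0.97 and 0.98), Acf1Δ libraries and the Rsf1Δ library at 0.78 lay within that range. The other libraries of the lines lay below it. These shifts were not tested, and how often other pairs of genes shift alike was not counted. Levels of Rbbp7 may include reads of Txlng, which overlaps it and was at up to 82.2 CPM, and those of Rbbp4 reads of Sync, at up to 7.45 CPM, since it is not stated how strand was used in counting.

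Smarca1 and Rbbp7 are both on the X chromosome, whose genes moved with some of the lines. The median log2 fold change over 552 tested X-linked genes was −0.24 in WstfΔ, −0.22 in BptfΔ and −0.15 in Acf1Δ, against −0.08 in Rsf1Δ, −0.024 in the libraries labelled Cecr2Δ and −0.016 in Tip5Δ. Rbbp7 and Smarca1 fell further than this median in WstfΔ and BptfΔ and were above it in Acf1Δ. The part of an X-wide shift in the values of these genes was not tested.

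Pole3 and Chrac1 encode the histone-fold pair of CHRAC, and POLE3 is also a subunit of DNA polymerase epsilon. Pole3 was not called in any line, and its log2 fold changes lay between −0.18 and 0.09. Its lowest difference was in WstfΔ, with 43.1 and 44.7 CPM against 51.1 and 48.4 in WT (−0.18 ± 0.072, SE, edgeR adjusted p = 0.0427). Over the other 5 lines the library values of Pole3 were between 40.7 and 54.2 CPM, close to the WT range of 42.2 to 53.8 CPM. Chrac1 rose in WstfΔ, from 22.4 and 22.6 CPM in WT to 31.4 and 33.2, above every WT library of every batch. The log2 fold change was 0.52 ± 0.099 (1.43-fold higher, adjusted p = 1.0e-04), and that of WstfΔ minus Rsf1Δ was 0.36 ± 0.098 (adjusted p = 0.0040). In BptfΔ, Chrac1 was at 22.6 and 21.8 CPM against 17.9 and 19.4, a difference of 0.25 ± 0.11 that was not called (adjusted p = 0.0461). The other lines had log2 fold changes of 0.012 to 0.16 with none called. In WstfΔ the 95% intervals of the pair did not overlap, at −0.33 to −0.032 for Pole3 and 0.32 to 0.72 for Chrac1.

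**Figure D4:**
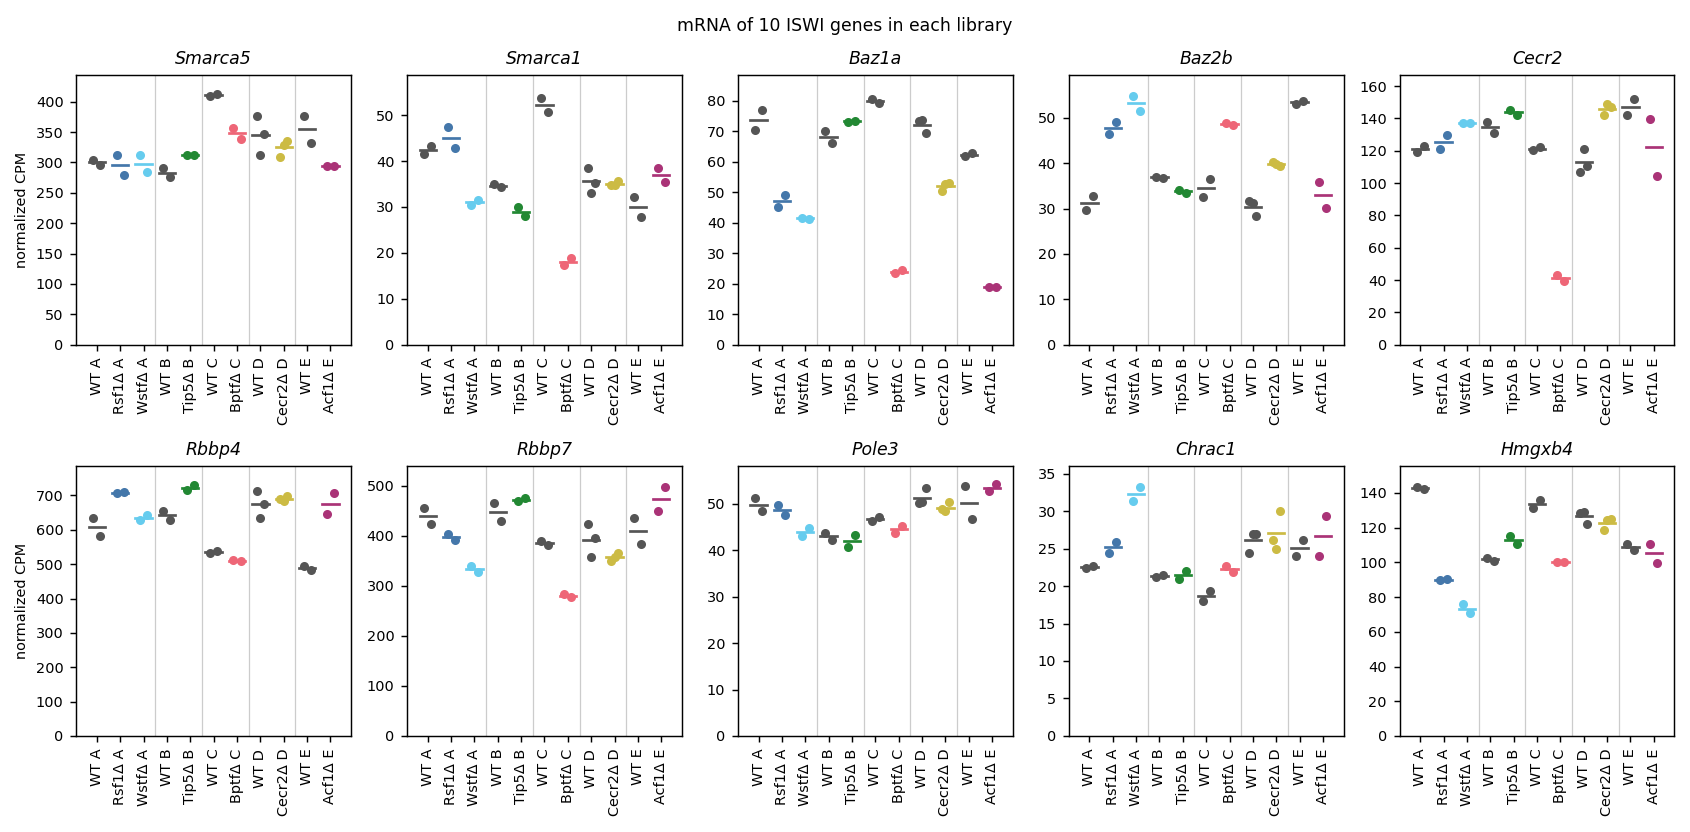
Level of each of the 10 genes in every library, in normalized CPM on axes that start at 0, with 1 point per library, a bar at the group mean and thin lines between batches A to E. WT is dark grey. Baz1a is lower in each line but Tip5Δ, Baz2b is higher in Rsf1Δ, WstfΔ, BptfΔ and the libraries labelled Cecr2Δ and lower in Acf1Δ, and Cecr2 is at 42.9 and 39.4 in BptfΔ.

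The targeted subunits that are not among the 10 genes were lower in most of their own lines. Rsf1 was changed by −2.26 ± 0.086 in Rsf1Δ, Baz1b by −2.40 ± 0.087 in WstfΔ and Bptf by −1.97 ± 0.11 in BptfΔ (log2 fold change ± SE). Baz2a in Tip5Δ was changed by −0.26 and not called (edgeR adjusted p = 0.0533). A list of 17 further genes (other ISWI subunits, partners of WICH, polymerase epsilon and CAF-1 subunits) was described in the same way, leaving out the gene each line targets. Of its 16 or 17 genes tested, 0 were higher and 1 lower in Rsf1Δ, 4 and 2 in WstfΔ, 1 and 1 in Tip5Δ, 4 and 3 in BptfΔ, 1 and 2 in the libraries labelled Cecr2Δ, and 1 and 4 in Acf1Δ. Over all genes the shares higher and lower were 7.45% and 13.1% in Rsf1Δ, 16.4% and 18.3% in WstfΔ, 2.84% and 6.23% in Tip5Δ, 21.4% and 20.2% in BptfΔ, 9.52% and 8.83% with the Cecr2Δ label, and 15.1% and 16.7% in Acf1Δ. None of them passed 2-fold, and the list medians were between −0.041 and 0.070. The list genes given next were chosen for mention after their values were seen. Among the accessory subunits, Baz2a was higher in WstfΔ by 0.56 ± 0.092 (adjusted p = 1.5e-05) and Luzp1 in BptfΔ by 0.38 ± 0.084 (4.7e-04). In Acf1Δ, Baz2a, Rsf1 and Bptf were called lower, with log2 fold changes of −0.42 ± 0.091, −0.54 ± 0.077 and −0.39 ± 0.11, while Baz1b at −0.18 ± 0.077 was not called (adjusted p = 0.0597). Bap18, a small NURF subunit, had −0.75 ± 0.074 in the libraries labelled Cecr2Δ (9.59e-09). For Pole4, the partner of POLE3 in polymerase epsilon, log2 fold changes of −0.60 ± 0.095 in BptfΔ, −0.35 ± 0.088 in Tip5Δ and 0.35 ± 0.085 in Acf1Δ were called.

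Markers of other cells that such cultures can hold differed in level between the lines and WT. The summed level of 5 primitive endoderm markers (Gata4, Gata6, Sox17, Sox7 and Dab2) was 278 to 279.5 CPM in WT of batch A against 119.9 to 127 in Rsf1Δ and 119.7 to 127 in WstfΔ. It was 281 to 295 CPM in WT against 63.6 to 68.0 in Tip5Δ, 113 to 118 against 9.77 to 10.1 in BptfΔ, 81.5 to 98.0 against 25.5 to 29.6 in the libraries labelled Cecr2Δ, and 206 to 213 against 224 to 253 in Acf1Δ. Sox17 was at a mean of 0.207 CPM in BptfΔ. The sum of 5 trophectoderm markers was 199 CPM in both WT libraries of batch A, 38.6 to 39.7 in Rsf1Δ and 31.0 to 34.2 in WstfΔ. It was 154 to 162 CPM against 85.1 to 95.05 in Tip5Δ, 67.8 to 69.2 against 35.7 to 40.4 in BptfΔ, 45.6 to 54.9 against 21.2 to 22.9 in the libraries labelled Cecr2Δ, and 108 to 115 against 83.5 to 85.7 in Acf1Δ, with Elf5 under 1 CPM throughout. Fibroblast markers summed to between 2.54 and 32.2 CPM, with Postn under 1 CPM throughout. The sum of the 6 mESC markers was 2527 to 2618 CPM in WT of batch A against 3464 to 3468 in Rsf1Δ and 3763 to 3809 in WstfΔ. It was 3086 to 3095 CPM in WT against 3020 to 3119 in Tip5Δ, 2611 to 2677 against 3898 in both BptfΔ libraries, 3436 to 3705 against 3892 to 4117 in the libraries labelled Cecr2Δ, and 3182 to 3390 against 3762 to 3911 in Acf1Δ. The part of the makeup of the cultures in the changes of the 10 genes was not tested.

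The genes most like each ATPase were sought among 9480 genes with a mean of at least 10 CPM, by Pearson's r of log2 CPM over the 24 libraries, each taken relative to the WT mean of its batch. For Smarca5 they were Ssb (r = 0.945), Nop14 (0.919) and Terf1 (0.918), and for Smarca1 Ipo11 (0.980), Mrpl19 (0.979) and Selenoi (0.973). These 24 points share batches and lines, so the values describe these libraries only, and none of the 6 genes lies on the chromosome of its ATPase.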

How the data were processed

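RNA was sequenced from 24 libraries of mESCs, and groups, batches and replicate numbers were taken from the sample labels. The authors deposited raw counts per gene, made by spliced alignment to mm10 with QuasR (the submitters' processing notes also name HISAT2 and bcl2fastq 2.17) over UCSC known genes, together with a deposited gene width in bases that was used here for levels per kilobase. Counting options, strand included, are not given in the sources used here, and the labels and the methods name different TruSeq kits. All replicate pairs differed by more than sampling noise, so each library counts as 1. The p-values use a spread fitted to all 24 libraries together, from independent replicates of 1 clone per line, and not a spread of each line. Replicate spread was unequal, which the fit does not allow for. Chi-square per gene of a pair was 2.52 and 1.86 in WT and Tip5Δ of batch B. It was 11.4 and 19.6 in WT and Acf1Δ of batch E, and up to 20.4 in WT of batch D.

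Gene IDs were joined to RefSeq (GRCm38.p6), which held 24570 of the 24594 IDs. In R 4.3.3, edgeR 4.0.16 filtered genes (filterByExpr by genotype), scaled libraries (TMM) and fitted a quasi-likelihood model (legacy form) with terms for batch and genotype to all 24 libraries. Adjustment (Benjamini–Hochberg) covered the 15682 genes tested. The SE of a log2 fold change was its size over the root of F, and intervals cover the fitted spread only. The script was tested on simulated counts in which 200 genes changed 2-fold and a single spread held for all genes and libraries. That test does not cover smaller changes or unequal spread.

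The 10 genes, the further pathway genes and the marker lists were chosen with earlier results of these data known. The genes named are the 10 members in all lines, the targeted genes, any pathway gene past 2-fold (only targeted ones were), and the 3 genes most like each ATPase, and others are said to be chosen after their values were seen. Alternatives were DESeq2 1.42.0, its size factors, library size only, edgeR's newer fit, no filter and a stricter one, no batch term, each line with its own WT only, a replicate block, an adjusted p under 0.05, a 2-fold minimum, leaving out each library, ratios without gene width and, added after seeing the data, protein-coding genes only and no batch C. Columns of other series numbered 0. Only RNA-seq counts were analysed here.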

Additional observations from a re-analysis of the deposited data

How the results depend on the processing

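Over 910 values of single members under alternatives, 865 kept their side of the threshold, 30 lost a call with the same direction, 13 gained one and 2 lost one with a change of sign. Of the 865, 25 also changed sign, all in comparisons that were not called (log2 fold changes up to 0.25). The 2 called values that reversed did so in a fit without the batch term, where Smarca5 in BptfΔ was at 0.0367 (adjusted p = 0.823) and Smarca1 in Acf1Δ at −0.0631 (0.856). That fit called 1 member in Rsf1Δ, 3 in WstfΔ, 4 in BptfΔ, 1 with the Cecr2Δ label and 1 in Acf1Δ, in place of 4, 6, 7, 3 and 5, and it sets each line against the WT libraries of all batches. The share of all genes called was not counted under this or the other alternatives, so their counts of members cannot be set beside such a share. The 2-fold minimum left 0, 0, 3, 0 and 1 by construction. In Tip5Δ, with 0 calls as reported, 2 members were called at an adjusted p under 0.05, 1 with library size only and 4 with only Tip5Δ and its WT, and such a fit of Acf1Δ called 3, without Smarca5 and Smarca1. The cause of these differences in Tip5Δ and Acf1Δ was not tested. DESeq2 and its size factors changed the side of the threshold in 0 of 60 comparisons. Leaving out any 1 library moved no count of members called by over 1.5 times. The number of members whose 6 changes were unequal, 9 with all libraries, was 7 or 8 in some of these fits. With the replicate number as a block, 3 members were called in Rsf1Δ, 6 in WstfΔ and 6 in BptfΔ, and 23 of 25 calls were kept, those lost being Rbbp4 in Rsf1Δ (adjusted p = 0.0135) and Smarca5 in BptfΔ (0.0131). Same-numbered libraries did not deviate together (r of −0.067 to 0.045, 8 distinct values over the 6 lines). A single r of this kind cannot show whether such libraries shared handling that affected some genes. Groups of 2 or 3 libraries limit all of these tests, and counts of a member were between 291 and 25086 per library, with no test of how far depth limits the members with the fewest.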
